A study of Mus musculus with 8 samples.

Results

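Glutathione transferases were followed as 10 genes, Gsta1, Gsta2, Gsta3 and Gsta4 of the alpha class, Gstm1, Gstm2 and Gstm3 of the mu class, Gstp1 of the pi class, and Gstt1 and Gstt2 of the theta class. They are 10 of the 27218 gene names on a mouse Agilent array, chosen by name, and all 13 of their probes were measured: 5 alpha, 4 mu, 2 pi and 2 theta. Every one of these probes was well above background on each of its arrays with a value. The data are 8 single-colour arrays of liver RNA, 2 per diet group, from male C57Bl/6J mice aged 14 weeks and fasted for 4 h. BD_HF mice came from dams kept on standard breeder chow and, once weaned, had feed in which fat gave 60% of energy. LF_HF mice were weaned onto the same feed, but from embryonic day 10.5 their dams had a defined vitamin A sufficient feed with 12% of energy as fat. VAD_VAD mice had a vitamin A deficient version of the 12% fat diet from embryonic day 10.5 through the dam and again after weaning. LF_LF mice had the sufficient 12% fat diet in both periods. All dams began on the breeder diet, so the groups share it up to the switch. Against LF_LF, the diets of dam and offspring change together in VAD_VAD and in BD_HF, so their parts cannot be told apart. Nothing in the labels says whether the 2 samples of a group are separate animals, and p-values therefore measure only the spread between these samples, which may be technical.

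Glutathione transferases join the tripeptide glutathione to reactive compounds such as drug metabolites, carcinogens and products of lipid oxidation, which makes them soluble and ready for export. The liver holds a large share of the body's transferase, and several alpha and mu genes are known in rodents as targets of the transcription factor NRF2, which acts through the antioxidant response element, and of the nuclear receptors CAR and PXR. Near-identical copies sit side by side in clusters, so the transcripts of alpha or mu neighbours can share signal on an array.

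Values are log2 of the authors' processed signal minus the 75th percentile of the same array, so 0 is the 75th percentile and 1 unit is a doubling. Levels are compared between groups for the same probe and not between probes. The array LF_HF replicate 1 stood apart from the other 7: 2707 of its spots were marked as outliers against 46 to 316 elsewhere, 88.3% of its probes were well above background against 57.0% to 64.2%, and the interquartile range of its log2 values was 2.84 against 4.27 to 4.71. Results that rest on it are given with and without it. The replicates correlated with r = 0.986 in BD_HF, 0.903 in LF_HF, 0.975 in VAD_VAD and 0.991 in LF_LF. Replicate 1 of every group lay on 1 slide and replicate 2 on another, per the file headers. The hepatocyte markers summed to between 2385 and 5457 times the 75th percentile on every array, and 11 of 14 listed markers entered the sum.

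The probes of Gsta1 and Gsta2 are printed because the main result rests on them and because they read closely related stretches of the 2 transcripts. Capitals mark the overlap in which the end of the Gsta1 probe matches the start of the Gsta2 probe. Both are given as in the deposited array files.
Gsta1: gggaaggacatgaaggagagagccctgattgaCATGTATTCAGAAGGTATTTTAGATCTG
Gsta2: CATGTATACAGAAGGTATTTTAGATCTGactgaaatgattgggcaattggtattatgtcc
The overlap is 28 bases long with 1 difference, A8T, counted from 1 at the 5′ end of the Gsta2 probe with the Gsta2 base first. No other pair of the 13 probes shared a run longer than 9 bases, over 77 pairs. On build mm9, which the headers name, the Gsta1 probe lay at chr9:78083844-78087325 on the plus strand, a span of 3482 bases for a probe of 60 bases, so it crosses at least 1 intron. The Gsta2 probe lay at chr9:78181644-78181703 on the minus strand. Signal of one transcript on the probe of the other cannot be separated with these arrays.

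Gsta1 and Gsta2, alpha transferases that reduce lipid peroxides as well as conjugating glutathione, were between 8.99-fold and 16.0-fold lower in BD_HF, LF_HF and VAD_VAD livers than in LF_LF livers. Gsta2 stood at −0.46 and 0.00 for BD_HF, at −0.67 and 0.16 for LF_HF, and at −0.79 and 0.39 for VAD_VAD, against 3.62 and 3.87 for LF_LF. Gsta1 stood at 1.86 and 2.33 for BD_HF, at 1.99 on the single LF_HF array with a value, and at 1.32 and 2.23 in VAD_VAD, against 5.24 and 5.30 in LF_LF. For both genes the LF_LF arrays lay above every other array, and the other 3 groups overlapped each other. The spot of Gsta1 on LF_HF replicate 1 was marked as an outlier and left out.

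VAD_VAD minus LF_LF asks what the vitamin A deficient diet changes against the sufficient one. On the log2 scale Gsta2 fell by 3.95 (limma, SE 0.487, adjusted p = 0.0337, 15.4-fold), and Gsta1 fell by 3.49 (SE 0.416, adjusted p = 0.0445, 11.3-fold). These were 2 of the 13 member probes, where 0.347% of all 26224 probes tested were called in this comparison in either direction and 0.29% were called lower. Within slide 1 the Gsta2 difference was −4.41 and within slide 2 it was −3.48, and for Gsta1 the differences were −3.92 and −3.07. With the slide as a block, which is the same fit as the replicate block, the Gsta2 call held (adjusted p = 0.0335) and the Gsta1 call did not (adjusted p = 0.0546).

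LF_HF minus LF_LF asks what the high fat diet after weaning changes when the dam had the 12% fat diet. Gsta2 fell by 4.003 (SE 0.487, adjusted p = 0.0179 with limma, 16.0-fold), and Gsta1 fell by 3.28 (SE 0.510, adjusted p = 0.0435, 1 LF_HF array). Among all probes 1.54% were called, and 1.13% were called lower. Without LF_HF replicate 1 the Gsta2 difference was −3.59 (adjusted p = 0.0100), and Gsta1 kept −3.28 (adjusted p = 0.00842). In that setting 9.41% of all probes were called, against 4.56% in VAD_VAD minus LF_LF and 7.6% in BD_HF minus LF_LF.

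BD_HF minus LF_LF, a comparison the study's design does not list, differs both in the diet of the dam and in the diet after weaning. It gave −3.98 for Gsta2 (SE 0.487, adjusted p = 0.0228 with limma, 15.8-fold) and −3.17 for Gsta1 (SE 0.416, adjusted p = 0.0354, 8.99-fold). Of all probes 0.908% were called, and 0.644% were called lower. These 3 comparisons share the same 2 LF_LF arrays, so they are not independent of one another. Leaving out either LF_LF array kept the Gsta2 differences between −4.13 and −3.82 and the Gsta1 differences between −3.52 and −3.14 over the 3 comparisons. In those limma fits 0 probes of all those tested were called, the adjusted p of the 2 genes ran from 0.185 to 0.432, and 1050 to 1982 probes had an unadjusted p under 0.05. Leaving out either BD_HF array also left 0 members called in all 3 comparisons, and leaving out either VAD_VAD array left 0 in VAD_VAD minus LF_LF and 1 in each of the other 2.

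BD_HF minus LF_HF asks what the diet of the dam changes when all offspring eat the high fat diet. Gsta2 differed by 0.02 (SE 0.487, 95% interval −1.12 to 1.17) and Gsta1 by 0.11 (SE 0.510, interval −1.13 to 1.34). Of the 13 member probes 0 were called with limma, and 0 had an unadjusted p under 0.05. Of all probes 0.00381% were called and 5.66% had an unadjusted p under 0.05. The intervals leave room for differences of more than 1 log2 unit in either direction, so they do not show that the groups are alike. With LF_HF replicate 1 left out, 1 LF_HF array remained, and the Gsta2 difference was −0.39, while Gsta1 kept 0.11. The Gstp1 probes then differed by −0.95 and by −1.59, the second with 1 array in each group. The median of the 13 probes was −0.10, against 0.40 with that array.

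**Figure D1:**
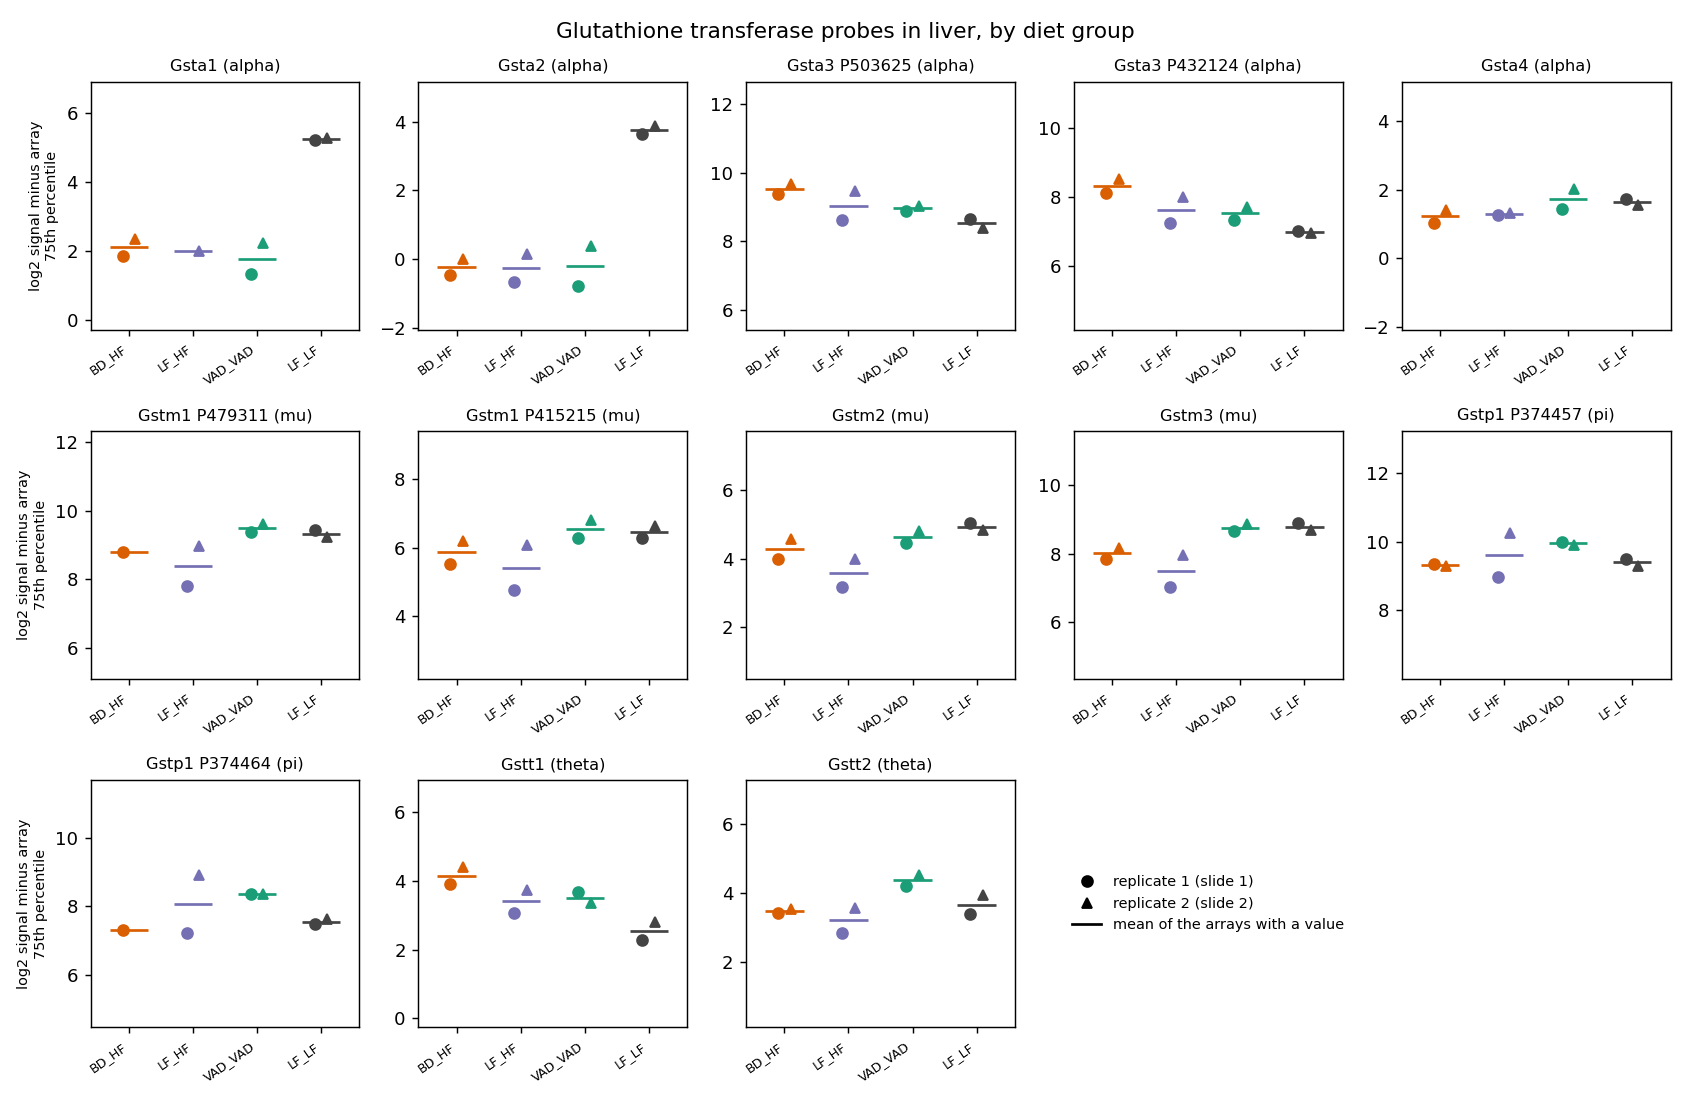
Log2 processed signal minus the 75th percentile of the array (y axis) for each of the 13 probes, by diet group; circles are replicate 1, triangles replicate 2, and lines the mean of the arrays with a value. Each panel spans the same number of log2 units. Gsta1 and Gsta2 lie at 3.62 or above in LF_LF and at 2.33 or below in the other groups, and the lowest array of each mu panel is LF_HF replicate 1.

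Other transcripts moved with Gsta1 and Gsta2 across the arrays. Summed signal of 8 cycling-cell markers was 1.95 and 2.22 times the 75th percentile for BD_HF, 2.24 and 1.98 for LF_HF, 2.44 and 2.88 in VAD_VAD, and 27.4 and 20.1 in LF_LF. The summed stellate cell and fibroblast markers came to 98.8 and 128 for BD_HF, 68.1 and 69.7 for LF_HF, 150 and 110 in VAD_VAD, and 260 and 216 in LF_LF. The macrophage markers came to 89.1 and 100.2 for BD_HF, 72.6 and 62.9 for LF_HF, 81.7 and 124 in VAD_VAD, and 188 and 170 in LF_LF. Each of these sums was higher on both LF_LF arrays than on any other array. Within the macrophage list the direction was mixed. Among its 12 markers 5 were higher and 7 lower in BD_HF minus LF_LF. In LF_HF and in VAD_VAD minus LF_LF, 3 were higher and 9 lower. In VAD_VAD minus LF_LF, 4 of 8 cycling, 5 of 11 stellate or fibroblast and 1 of 12 macrophage markers were called lower with limma. None was called higher, and 0.29% of all probes were called lower. Negative differences in VAD_VAD minus LF_LF, called or not, were found for 7, 10 and 9 markers of these lists. The 5 stellate or fibroblast calls include Lrat, at −5.81 in VAD_VAD, −0.90 in LF_HF and 0.03 in BD_HF minus LF_LF. Markers called lower in these lists numbered 4, 5 and 3 in LF_HF minus LF_LF, where 1.13% of all probes were called lower. In BD_HF minus LF_LF they numbered 4, 4 and 1, against 0.644%. The sums of the cholangiocyte markers were 11.9 and 11.4 for BD_HF, 8.30 and 7.52 for LF_HF, 7.33 and 6.52 in VAD_VAD, and 18.7 and 27.5 in LF_LF, with 0 of 8 markers called. Neutrophil markers summed to 19.1 and 25.3 in VAD_VAD, against 4.62 and 4.48 in LF_LF, and erythroid markers to 182 and 330 in VAD_VAD, against 79.9 and 83.2 in LF_LF. Of 6 neutrophil and 4 erythroid markers 0 were called with limma in VAD_VAD minus LF_LF. An unadjusted p under 0.05 was found for 2 and 3, all higher, where 9.72% of all probes had one in either direction. The part of these cells in the Gsta1 and Gsta2 result was not tested, and in bulk liver more cells of a type and more RNA per cell cannot be told apart.

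**Figure D2:**
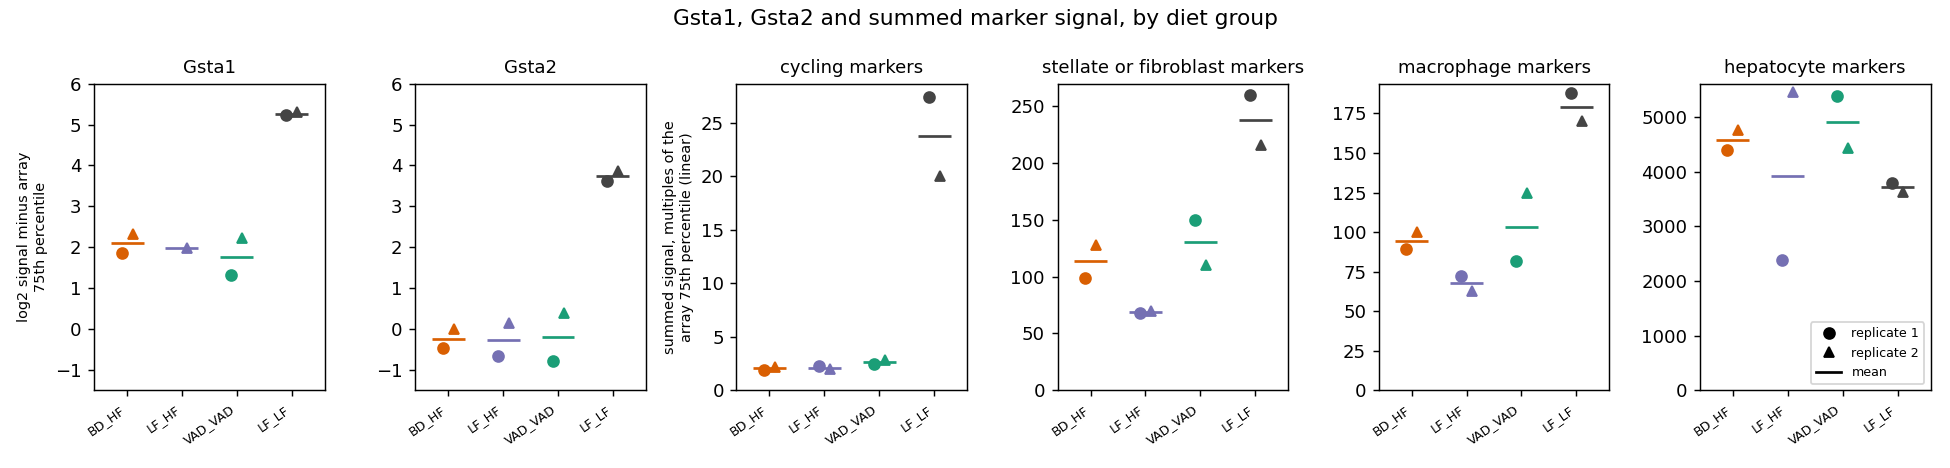
Gsta1 and Gsta2 (log2 signal minus the array's 75th percentile) beside the summed linear signal of cycling, stellate or fibroblast, macrophage and hepatocyte markers in multiples of the 75th percentile, by diet group; circles are replicate 1, triangles replicate 2 and lines the mean. The LF_LF arrays are the highest in all panels except that of the hepatocyte markers, where they were 3790 and 3635 within a range of 2385 to 5457.

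The genes whose profile was most like that of Gsta2, the member with the largest SD over the 8 arrays (1.89), were ranked by Pearson's r over 24481 probes with a value on every array. They were Shcbp1 (r = 0.989), Ninl (r = 0.984), Kctd3 (r = 0.983), Nutf2 (r = 0.980) and Cdc20 (r = 0.979), of which Cdc20 activates the anaphase-promoting complex in mitosis. The 8 points share the same LF_LF arrays at one end, so these values describe a separation of 2 arrays from 6. Ninl was well above background only on the 2 LF_LF arrays. Gsta1 had r = 0.994 with Gsta2 over the 7 arrays on which it had a value, with the shared probe stretch printed above.

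The promoters of Gsta1 and Gsta2 are printed because these 2 genes moved together. Both are the 250 bases before the transcription start from RefSeq (GRCm38.p6), and capitals mark runs of 15 or more bases found in both.
Gsta1 (chr9:78230419-78230668, plus strand): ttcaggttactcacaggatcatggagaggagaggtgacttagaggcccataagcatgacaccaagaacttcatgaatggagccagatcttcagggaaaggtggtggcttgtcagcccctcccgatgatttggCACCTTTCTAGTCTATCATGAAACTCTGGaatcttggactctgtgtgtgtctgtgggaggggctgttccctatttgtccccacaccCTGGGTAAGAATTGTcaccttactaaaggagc
Gsta2 (chr9:78347146-78347395, minus strand): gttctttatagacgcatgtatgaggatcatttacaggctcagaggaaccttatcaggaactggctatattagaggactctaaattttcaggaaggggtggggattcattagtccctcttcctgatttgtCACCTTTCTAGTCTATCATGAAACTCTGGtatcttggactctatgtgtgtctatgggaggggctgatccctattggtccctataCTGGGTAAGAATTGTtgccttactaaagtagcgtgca
The 2 shared runs hold 44 bases, of which the longest run has 29. The letters of the antioxidant response element (TGACNNNGC, both strands) were looked for in 300 bases, from 250 before to 50 after the start. They were in neither of these windows, and of the 8 member genes with a promoter entry they were in that of Gsta3, at position −121 from the start. In all, 12.4% of 32851 promoters held them. The nuclear receptor repeats DR5 and DR1 (AGGTCA, then 5 or 1 of any base, then AGGTCA again), also on both strands, were in 0 of the 9 promoter entries of these genes, and in 0.00913% and 0.0396% of all promoters. A missing match says only that these letters are not in this window.

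Gsta3, an alpha transferase known in mice for detoxifying aflatoxin, was higher than in LF_LF in the other 3 group means, with differences that did not pass and that turned negative under some scalings (median scaling in LF_HF, and quantile scaling in VAD_VAD on probe A_51_P503625). Probe A_52_P432124 read 8.11 and 8.52 for BD_HF, 7.25 and 7.99 for LF_HF, 7.34 and 7.72 for VAD_VAD, and 7.03 and 6.96 for LF_LF. Probe A_51_P503625 read 9.37 and 9.65 for BD_HF, 8.61 and 9.47 for LF_HF, 8.89 and 9.04 for VAD_VAD, and 8.64 and 8.40 for LF_LF. On the first probe the LF_LF arrays were the lowest, and on the second they overlapped those of LF_HF. BD_HF minus LF_LF was 1.32 on the first probe (SE 0.369, adjusted p = 0.202 with limma) and 0.99 on the second (SE 0.371, adjusted p = 0.356). Without LF_HF replicate 1 the first probe was called (adjusted p = 0.0315), against a background of 7.6% of all probes, and the second was not (adjusted p = 0.0549).

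Gsta4, which clears the lipid aldehyde hydroxynonenal, varied little. It read 1.03 and 1.41 for BD_HF, 1.26 and 1.32 for LF_HF, 1.42 and 2.01 for VAD_VAD, and 1.72 and 1.55 for LF_LF. The VAD_VAD arrays spanned the LF_LF arrays, and those of BD_HF and LF_HF lay below the LF_LF arrays. The largest of its differences, BD_HF minus LF_LF, was −0.42 (SE 0.335, 95% interval −1.20 to 0.37, adjusted p = 0.734 with limma).

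The mu class was lower in BD_HF and in LF_HF livers than in LF_LF livers on all 4 probes, without a call in the main fit. Gstm1, an abundant liver transferase in mice, read 5.53 and 6.21 for BD_HF, 4.76 and 6.07 for LF_HF, 6.29 and 6.82 for VAD_VAD, and 6.27 and 6.64 for LF_LF on probe A_52_P415215. Its probe A_51_P479311 read 8.80 on the single BD_HF array with a value, 7.82 and 8.98 for LF_HF, 9.37 and 9.61 for VAD_VAD, and 9.43 and 9.23 for LF_LF. On both probes every BD_HF and LF_HF array with a value lay below those of LF_LF, and VAD_VAD and LF_LF overlapped.

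Gstm2, another conjugating enzyme of this class, read 3.98 and 4.59 for BD_HF, 3.19 and 3.99 for LF_HF, 4.45 and 4.82 for VAD_VAD, and 5.04 and 4.83 for LF_LF. Gstm3 read 7.85 and 8.17 for BD_HF, 7.05 and 7.96 for LF_HF, 8.66 and 8.86 for VAD_VAD, and 8.89 and 8.68 for LF_LF. The groups of both genes followed the pattern of Gstm1, except that the VAD_VAD arrays of Gstm2 lay just below those of LF_LF.

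In LF_HF minus LF_LF the mu differences ran from −1.35 for Gstm2 (SE 0.397, adjusted p = 0.172 with limma) and −1.28 for Gstm3 (SE 0.383, adjusted p = 0.179) to −0.93 for the Gstm1 probe A_51_P479311 (SE 0.453, adjusted p = 0.379). The median of the 4 was −1.16, where the median over all probes was 0.05. Without LF_HF replicate 1 the mu median was −0.61 and 0 of 4 were called. That array was the lowest on each mu probe, and without LF_HF replicate 2, where it is the only LF_HF array, all 4 were called, in a fit that called 26.8% of all probes. The LF_HF and LF_LF arrays did not overlap on 4 of 4 mu probes, all lower in LF_HF, where 18.5% of all probes were lower without overlap, and for BD_HF it was 3 of the 3 mu probes with both arrays, against 24.1%. In BD_HF minus LF_LF the 4 ran from −0.77 to −0.53, with a median of −0.62 against 0.12 over all probes and adjusted p of 0.507 for Gstm3. In VAD_VAD minus LF_LF the median was 0.04 against 0.09 over all probes, and the 95% interval for Gstm3 was −0.92 to 0.88.

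Gstp1, the pi class enzyme, known in mice to be higher in males, had 2 probes that differed most between the 2 LF_HF arrays. Probe A_51_P374457 read 9.35 and 9.28 for BD_HF, 8.97 and 10.27 for LF_HF, 10.003 and 9.91 for VAD_VAD, and 9.50 and 9.29 for LF_LF. Probe A_51_P374464 read 7.33 on the single BD_HF array with a value, 7.24 and 8.92 for LF_HF, 8.36 and 8.37 for VAD_VAD, and 7.48 and 7.63 for LF_LF. On both probes the 2 VAD_VAD arrays lay above those of LF_LF, and the LF_HF arrays were the lowest and the highest of those with a value.

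VAD_VAD minus LF_LF was 0.56 on the first pi probe (SE 0.443, adjusted p = 0.746 with limma), a direction that turned under quantile scaling, and 0.81 on the second (SE 0.564, adjusted p = 0.713). LF_HF minus LF_LF on the second probe was 0.52 (SE 0.564, adjusted p = 0.697), and without LF_HF replicate 1 it was 1.37. On the first probe the same setting, with 1 LF_HF array, gave 0.87. Without LF_HF replicate 2 the differences were −0.43 on the first probe and −0.32 on the second, so the direction depended on which LF_HF array was used. The neighbouring copy Gstp2 is near-identical to Gstp1 in mice, so the member read by these probes is uncertain.

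Gstt1, a theta transferase that acts on small halogenated compounds, was lowest in LF_LF livers. It read 3.91 and 4.40 for BD_HF, 3.08 and 3.74 for LF_HF, 3.68 and 3.35 for VAD_VAD, and 2.28 and 2.81 for LF_LF. No array of another group overlapped LF_LF, and the BD_HF arrays were above all others. BD_HF minus LF_LF was 1.61 (SE 0.386, 95% interval 0.70 to 2.51, adjusted p = 0.145 with limma, 3.04-fold). LF_HF replicate 1 is in neither group but adds to the estimate of spread. Without it the adjusted p of Gstt1 was 0.0270 with limma, against a background of 7.6% of all probes called. VAD_VAD minus LF_LF was 0.97 (SE 0.386, adjusted p = 0.478), and LF_HF minus LF_LF was 0.86 (SE 0.386, adjusted p = 0.331).

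Gstt2, a theta member that also cleaves sulfate esters, was highest in VAD_VAD livers. It read 3.41 and 3.53 for BD_HF, 2.85 and 3.58 for LF_HF, 4.205 and 4.53 for VAD_VAD, and 3.39 and 3.95 for LF_LF. The VAD_VAD arrays lay above all others, by 0.70 in the mean over LF_LF (SE 0.378, 95% interval −0.18 to 1.59, adjusted p = 0.622 with limma). The remaining groups overlapped.

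**Figure D3:**
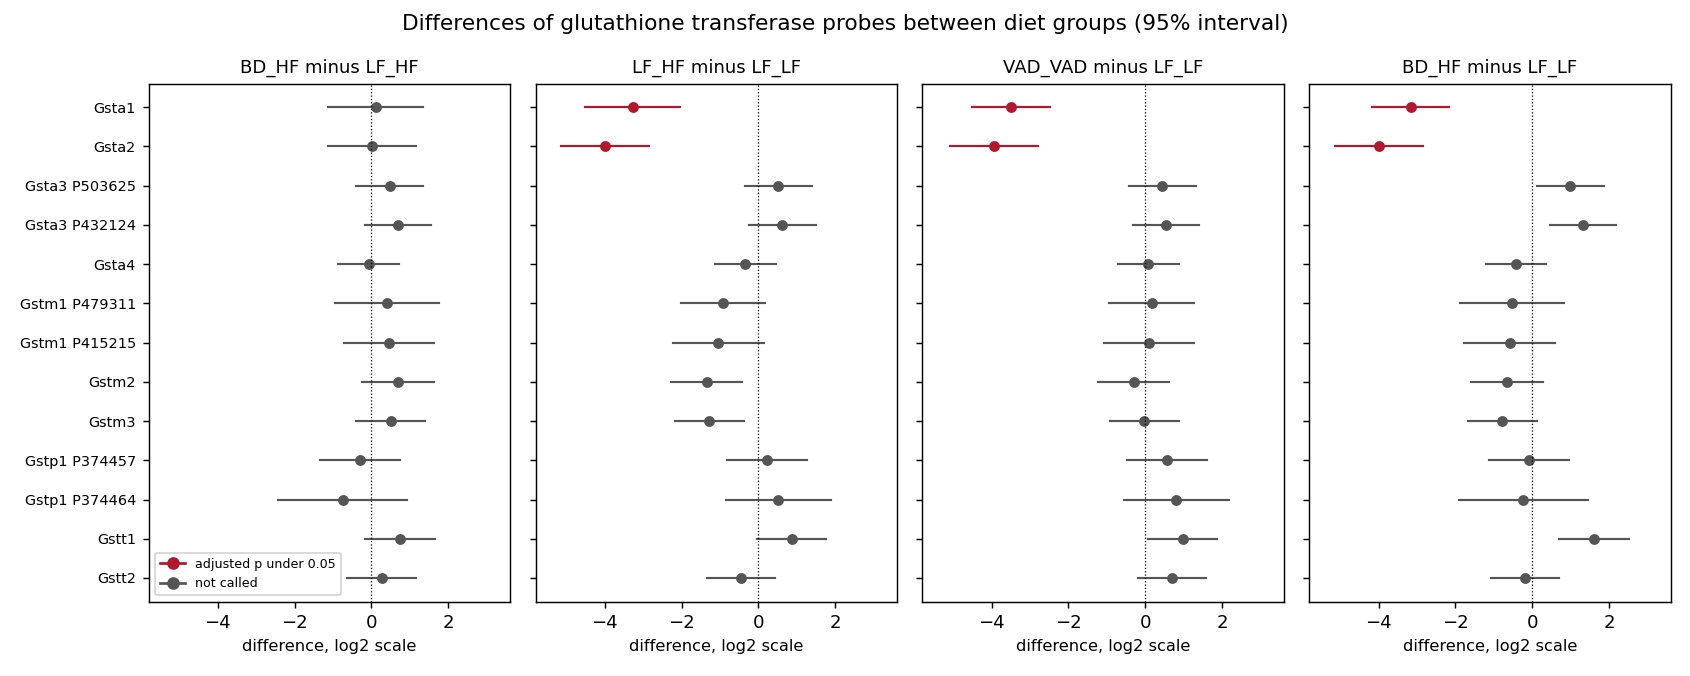
Difference between group means on the log2 scale (x axis) with its 95% interval for each of the 13 probes in 4 comparisons; red marks adjusted p under 0.05. Gsta1 and Gsta2 are the only red probes, between −4.003 and −3.17 in the 3 comparisons with LF_LF, and 0 of 13 are red in BD_HF minus LF_HF.

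By class, the called members were 2 of 5 alpha probes in each comparison with LF_LF, and 0 of 4 mu, 0 of 2 pi and 0 of 2 theta probes. Unadjusted p under 0.05 was found for 3 of 13 probes in VAD_VAD minus LF_LF, for 4 of 13 in LF_HF minus LF_LF and for 5 of 13 in BD_HF minus LF_LF, and for 9.72%, 16.1% and 11.7% of all probes. Without Gsta1 and Gsta2, the median of the other 11 probes was 0.45 in VAD_VAD minus LF_LF, −0.34 in LF_HF minus LF_LF and −0.23 in BD_HF minus LF_LF. The arrays of the groups did not overlap for 9 of 13 probes in VAD_VAD minus LF_LF, 6 higher and 3 lower, where 57.4% of all probes did not overlap. Among probes with a value on all 4 arrays compared, it was 8 of 12 in LF_HF minus LF_LF, 2 higher and 6 lower, against 42.8%, and 9 of 11 in BD_HF minus LF_LF, 3 higher and 6 lower, against 58.9%.

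Of 22 further transferase and related microsomal genes, 17 were kept, and 0 were called with limma in any of the 4 comparisons. An unadjusted p under 0.05 was found for 1 in BD_HF minus LF_HF, 1 in VAD_VAD minus LF_LF, 3 in LF_HF minus LF_LF and 2 in BD_HF minus LF_LF. In that order 5.66%, 9.72%, 16.1% and 11.7% of all probes had one. The list medians were 0.23, 0.15, −0.19 and −0.07 in that order, against 0.11, 0.09, 0.05 and 0.12 over all probes. Gstt3, the theta neighbour of Gstt1 and Gstt2, read 4.40 and 5.23 for BD_HF, 3.08 and 3.35 for LF_HF, 4.16 and 3.08 for VAD_VAD, and 2.58 and 2.54 for LF_LF. Its difference in BD_HF minus LF_LF was 2.25 (SE 0.458, adjusted p = 0.0890). The BD_HF arrays of Gstt3 were above all others and the LF_LF arrays below all others. Its adjusted p was 0.0285 without LF_HF replicate 1, where 7.6% of all probes were called in BD_HF minus LF_LF. Ptges, a microsomal prostaglandin synthase, was well above background on 0 of 2 BD_HF arrays and on 1 of 2 LF_HF arrays. Its highest array was LF_HF replicate 1. It was not called in BD_HF minus LF_HF (adjusted p = 0.764 with limma). No least fold can be given, because 1 of the LF_HF arrays was also not well above background. Without LF_HF replicate 1 the list had 1 called higher and 1 lower in BD_HF and 1 lower in VAD_VAD minus LF_LF. In that setting 7.6% and 4.56% of all probes were called, and the list median in LF_HF minus LF_LF was −0.32.

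With all arrays, the called genes among 27 kept NRF2 targets all fell: 1 in VAD_VAD minus LF_LF, 2 in LF_HF minus LF_LF and 3 in BD_HF minus LF_LF, with 0 called higher. The shares of all probes called were 0.347%, 1.54% and 0.908% in that order. This list overlaps those below, with Srxn1 and Slc7a11 among the shared genes, so the lists are not separate evidence. Cbr3, a carbonyl reductase, read −0.92 and −0.88 for BD_HF, −1.66 and −1.53 for LF_HF, −0.49 and −0.06 for VAD_VAD, and 3.25 and 3.32 for LF_LF. It fell in all 3 comparisons, by 3.56 in VAD_VAD (SE 0.301, adjusted p = 0.0195 with limma), by 4.88 in LF_HF (adjusted p = 0.00593) and by 4.19 in BD_HF (adjusted p = 0.00889). Srxn1, which repairs overoxidised peroxiredoxins, read 2.38 and 2.67 for BD_HF, 2.61 and 2.44 for LF_HF, 3.51 and 3.40 for VAD_VAD, and 5.16 and 4.89 for LF_LF. It fell by 2.50 in both LF_HF (adjusted p = 0.0171) and BD_HF (adjusted p = 0.0211), and differed by −1.57 in VAD_VAD (adjusted p = 0.109). Like Gsta1 and Gsta2, both genes were highest on the 2 LF_LF arrays. The medians of the list were −0.27, −0.67 and −0.20 in VAD_VAD, LF_HF and BD_HF minus LF_LF, against 0.09, 0.05 and 0.12 over all probes. The LF_HF median was −0.28 without LF_HF replicate 1, a fit with 1 LF_HF array, so LF_HF calls are not counted here. In that setting 4 genes were called lower in VAD_VAD and 3 lower in BD_HF, against 4.56% and 7.6% of all probes called in either direction.

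For the supply of glutathione, 1 of 21 kept genes was called, the cystine importer gene Slc7a11. It was not well above background on either BD_HF array and was at least 3.01-fold lower there than in LF_LF (adjusted p = 0.0316 with limma). Among 23 peroxidase and thioredoxin genes, Gpx2, an epithelial glutathione peroxidase, fell by 3.16 in LF_HF minus LF_LF (SE 0.476, adjusted p = 0.0414, 1 LF_HF array). Gpx7, a peroxidase of the endoplasmic reticulum, fell by 2.47 in VAD_VAD minus LF_LF (SE 0.342, adjusted p = 0.0496). The other calls of that list were those of Srxn1 above. Neither list had a call in BD_HF minus LF_HF. The peroxidase list without LF_HF replicate 1 had 1 called higher and 5 lower in BD_HF and 4 lower in VAD_VAD minus LF_LF. The supply list then had 2 called lower in BD_HF, and 1 higher and 1 lower in VAD_VAD. In that setting 7.6% of all probes were called in BD_HF and 4.56% in VAD_VAD minus LF_LF. The LF_HF medians were 0.43 and 0.20 without that array, against −0.03 and −0.31 with it.

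Of the xenobiotic receptors and their targets, 3 of 28 were called higher in BD_HF minus LF_LF and 3 higher and 1 lower in LF_HF minus LF_LF, while VAD_VAD minus LF_LF had 0 calls. An unadjusted p under 0.05 was found for 9 higher and 5 lower in BD_HF, for 8 higher and 6 lower in LF_HF, and for 10 higher and 0 lower in VAD_VAD, where 11.7%, 16.1% and 9.72% of all probes had one. Without LF_HF replicate 1, 8 were called higher and 4 lower in BD_HF, and 7 higher in VAD_VAD. In that setting 7.6% and 4.56% of all probes were called in either direction, and the LF_HF median was 0.34. With all arrays, 0.263% of all probes were called higher in BD_HF minus LF_LF and 0.408% in LF_HF minus LF_LF. The list medians were 0.50 in VAD_VAD, 0.08 in LF_HF and 0.47 in BD_HF minus LF_LF. Nr1i3, which encodes CAR, read 3.03 and 3.18 for BD_HF, 2.26 and 2.79 for LF_HF, 1.23 and 1.96 for VAD_VAD, and −0.25 and 0.05 for LF_LF. It rose by 3.20 in BD_HF (SE 0.374, adjusted p = 0.0192 with limma) and by 2.63 in LF_HF (adjusted p = 0.0280), and differed by 1.70 in VAD_VAD (adjusted p = 0.171). The cytochrome P450 gene Cyp2c37 rose by 5.33 in BD_HF (adjusted p = 0.0101) and by 4.94 in LF_HF (adjusted p = 0.00795), and Cyp2c39 rose by 3.22 and 2.71 (adjusted p = 0.0192 and 0.0263). Cyp2c55 fell by 2.36 in LF_HF (adjusted p = 0.0435). Cyp2c genes are near-identical, so the member read by a probe is uncertain.

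The lobule was followed with genes of its pericentral and periportal ends, since transferases are known to be stronger near the central vein in rodents. Of 15 pericentral genes 0 were called in BD_HF or LF_HF minus LF_LF. An unadjusted p under 0.05 was found for 9 of 15 in BD_HF minus LF_LF, all higher, against 11.7% of all probes. The list median there was 1.44, against 0.12 over all probes. In LF_HF minus LF_LF 6 of 15 had an unadjusted p under 0.05, all higher, against 16.1% of all probes, with a list median of 0.90. Without LF_HF replicate 1, 7 were called higher in BD_HF, 6 in LF_HF, where the median was 1.29, and 4 in VAD_VAD, against 7.6%, 9.41% and 4.56% of all probes called in either direction. In VAD_VAD minus LF_LF the ammonia transporter gene Rhbg fell by 2.84 (SE 0.348, adjusted p = 0.0331 with limma). Of 15 periportal genes 0 were called in any comparison. In BD_HF and LF_HF minus LF_LF 2 and 3 had an unadjusted p under 0.05, where 11.7% and 16.1% of all probes had one. The largest periportal differences were both in LF_HF minus LF_LF. They were −2.87 for Apoa4, an apolipoprotein gene (SE 0.922, adjusted p = 0.204 with limma), and −2.07 for Etnppl, a phospholyase gene (SE 0.457, adjusted p = 0.0861). Leaving out LF_HF replicate 1, 2 periportal genes were called lower in BD_HF and 1 in LF_HF, where the list median was 0.07 against −0.32 with it. In BD_HF minus LF_HF 0 genes of these lists were called.

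**Figure D4:**
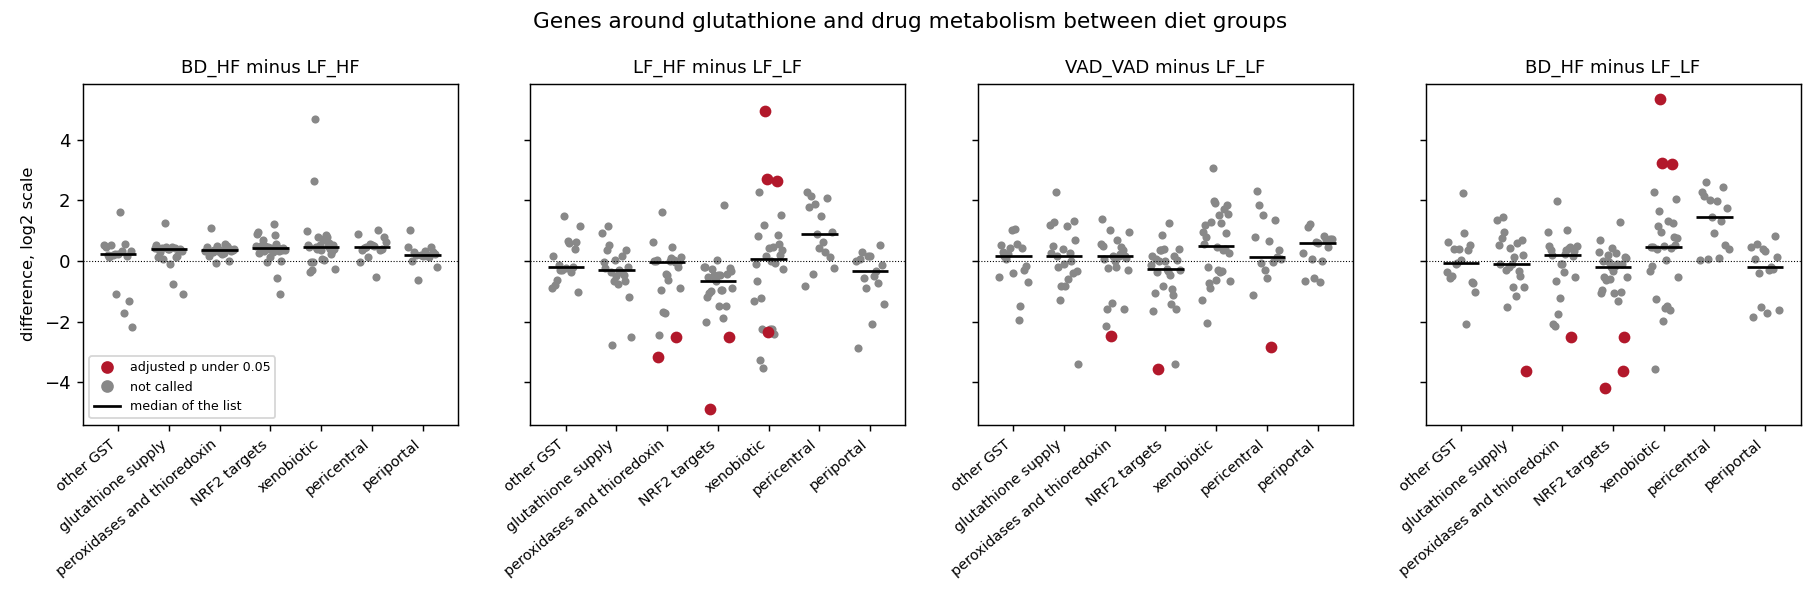
Difference on the log2 scale (y axis) of each kept gene of 7 lists in the 4 comparisons; red points have adjusted p under 0.05, grey points were not called and lines are list medians. No red point appears in BD_HF minus LF_HF, the red NRF2 points lie between −4.88 and −2.50, and the highest xenobiotic point, Cyp2c37 in BD_HF minus LF_LF, is at 5.33.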

How the data were processed

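Liver RNA was hybridised to single-colour Agilent arrays of design 014868 and scanned images were quantified by Agilent software 10.7.3.1 (Feature Extraction), as the headers state. The deposited files give the processed signal as a linear intensity after background handling and detrending, per the file headers, and the deposited series table held the same intensity rounded (largest relative difference 0.497%). In the submitters' processing notes limma is listed, with neither role nor version.

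Here, outlier spots were left out, log2 values of the deposited intensity were taken and set relative to the array's own 75th percentile, and spots of a probe were averaged. Probes were kept if 1 or more groups had them well above background on both arrays (26224 of 41174). Each probe was fitted with limma 3.58.1 (lmFit, eBayes) in R 4.3.3 on all 8 arrays, with 4 residual degrees of freedom, and p-values were adjusted by Benjamini-Hochberg over the kept probes of a comparison; under 0.05 was called. A fit uses the arrays with a value, so Gsta1 has 1 LF_HF array and 2 probes have 1 BD_HF array. A gene not well above background in a group has a bound, set at each array's lowest signal above background or the probe's own if higher. Intervals are 95%.

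Every member probe is named; of each list, called genes are named, or, where none was called, the 2 with the largest difference. The members and lists were chosen with earlier results of these data known. In simulated VAD_VAD minus LF_LF data of 24481 probes, 76% of 50 probes changed by 4 log2 units were called, 30% at 3, 8% at 2 and 0% at 1. Alternatives covered background, scaling, filter, variance model, the slide as a block and each array left out. Replicate numbers coincide with slides per the file headers; deviations of same-numbered arrays correlated at 0.0674 to 0.254 between groups. Of the 10 genes, 8 had a RefSeq promoter; Gsta4 and Gstt2 are named only. Figures were drawn with matplotlib and pandas. The number of arrays limits the precision.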

Additional observations from a re-analysis of the deposited data

How the results depend on the processing

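In BD_HF minus LF_HF, 0 member probes were called in any of the 22 alternatives. Against LF_LF, Gsta1 and Gsta2 were lower in 128 of 128 alternative fits, between −4.75 and −2.87, and called in 77. Some of these fits cannot move the difference, such as those that leave out an array of a group not compared. The slide and replicate blocks are the same fit counted under 2 names. The 128 are therefore not separate tests of the direction. The number of called members, 2 in each comparison with LF_LF, moved as follows. In LF_HF minus LF_LF it was 4 with normexp background, 5 with normexp and quantile scaling, 1 with median scaling, 1 with probes above background on all arrays, and 0 with no filter, with array weights and with only the 2 groups compared. In VAD_VAD minus LF_LF it was 0 with quantile scaling, median scaling or no filter, and 1 with probes above background on all arrays and with the slide, or replicate block. In BD_HF minus LF_LF it was 4 with normexp background, 5 with normexp and quantile scaling, with array weights and with only the 2 groups compared, 3 with trend and robust variances, 1 with probes above background on all arrays, and 0 with median scaling or no filter. Leaving out each array in turn gave 0 to 5, 0 to 2 and 0 to 4 in that order.

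With no filter 0 of 41174 probes were called in any comparison. Over all alternatives, called probes ran from 0 to 6606 in LF_HF minus LF_LF, 0 to 1523 in VAD_VAD minus LF_LF, 0 to 3504 in BD_HF minus LF_LF and 0 to 5226 in BD_HF minus LF_HF, against 404, 91, 238 and 1. Of the 404 called in LF_HF minus LF_LF 297 were lower, but 1211 of 4023 with normexp background and 131 of 145 with median scaling. In VAD_VAD minus LF_LF 15 higher and 76 lower became 106 and 261 with normexp background, and in BD_HF minus LF_LF 69 and 169 became 312 and 466 with it, 349 and 530 with normexp and quantile scaling, and 10 and 51 with median scaling. With the replicate block 253, 53 and 182 probes were called against LF_LF in LF_HF, VAD_VAD and BD_HF. Median scaling moved the median of all probes from 0.11 to 0.88 in BD_HF minus LF_HF and from 0.05 to −0.65 in LF_HF minus LF_LF. The replicate block changed no member call other than that of Gsta1 in VAD_VAD minus LF_LF. Normexp background added calls of Gstm2 and Gstm3 in LF_HF minus LF_LF (4023 probes called), and with quantile scaling also Gstt1 (1388 called). In BD_HF minus LF_LF it added Gstt1 and Gsta3 probe A_52_P432124 (778 called), and with quantile scaling also Gstm3 (879 called). Array weights and the 2-group fit added Gstt1 and the 2 Gsta3 probes there, with 3504 and 3282 probes called. Trend and robust variances added Gstt1 there, with 632 called.

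In 7 fits an uncalled difference of at least 1 SE changed sign. The Gsta3 probes read −0.22 and −0.12 in LF_HF minus LF_LF with median scaling, and A_51_P503625 read −0.17 and −0.14 in VAD_VAD minus LF_LF with normexp and with plain quantile scaling. Gstp1 A_51_P374457 read −0.0538 and −0.13 in the same 2 settings, and A_51_P374464 ran from −1.59 to 0.093 in BD_HF minus LF_HF over the fits without 1 array, the highest without LF_HF replicate 2. The causes were not tested.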
